A study of Homo sapiens with 4 samples.

Results

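The genes described here are 10 components of the Notch pathway, chosen by symbol from the 19314 genes of the deposited table. They are the receptors NOTCH1, NOTCH2 and NOTCH3, the ligands JAG1, JAG2 and DLL1, and the targets HES1, HEY1, HEYL and NRARP. Of these, 9 carried a value and HEYL was listed without one. The study used U87, an established human malignant glioma cell line, to ask how lowering PTPRN, a receptor-type tyrosine phosphatase gene, changes the transcriptome. RNA-seq was performed on 4 libraries, 2 labelled PTPRN knockdown (titled PTP2) and 2 labelled SCR, and all 4 came from U87 cells. According to the methods, short hairpin RNA in the vector pLKO.1 was used, with a control vector of similar GC content that matched no human coding gene. The labels do not spell out which hairpin PTP2 is, or whether the replicates were separate cultures, so the tests measure the spread between these libraries, which may be technical.

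Notch receptors are single-pass membrane proteins that bind Jagged and Delta-like ligands on neighbouring cells. Binding is followed by cleavage of the receptor by ADAM proteases and then by γ-secretase, which frees the intracellular domain. This domain enters the nucleus, joins the DNA-binding protein RBPJ and a Mastermind co-activator, and switches on genes such as those of the HES and HEY repressors and NRARP, a feedback inhibitor. In glioma, the pathway is known for its part in the maintenance of stem-like cells.

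Expression was given as FPKM (fragments per kilobase of transcript, scaled to the mapped fragments of the library), so levels can be compared between genes. The steps between low FPKM values gave an estimated 18150000 to 19850000 reads per library. PTPRN itself had an FPKM of 12.1 and 11.7 in the knockdown libraries and of 84.8 and 85.0 in the SCR libraries. The growth protocol recorded with the samples names a stem-cell medium, while the methods of the study describe DMEM with serum. The part of the medium in the values was not tested. That protocol also names the brain endothelial line hCMEC/D3, against the U87 of the labels, so markers were examined. Of 10 endothelial markers, 0 reached an FPKM of 10. Their summed FPKM was 4.03 and 4.57 with the knockdown and 4.72 and 4.77 with SCR. By the test used below, 3 were higher (ERG, KDR and TEK) and 2 lower (VWF and PECAM1). That is 50% of them, beside 57.9% of all genes tested. CDH5 and CLDN5 were at most at 0.03, while PECAM1 was highest, at 1.21 and 1.26 against 2.39 and 2.5, and TEK reached 1.08. Of 8 glioma line markers, 5 reached 10, while GFAP, S100B and SOX2 stayed under 1 in every library. The glioma line markers did not move together: VIM and CD44 were higher and NES, TNC, CHI3L1 and GFAP were lower. Their summed FPKM, most of it VIM, was 5379 and 5180 with the knockdown and 2941 and 2862 with SCR. That of 7 epithelial markers, of which 0 reached 10, was 4.06 and 4.07 against 10.8 and 10.5. The 6 myeloid markers with a value summed to 6.04 and 5.19 against 6.73 and 7.0. The part of these markers in the Notch values was not tested, and neither was whether they tell U87 from hCMEC/D3.

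The 9 measured Notch genes moved in both directions. Values were tested as log2(FPKM + 1) with limma across all 16595 genes that had a value above 0 in any library, and a gene passed at a Benjamini-Hochberg adjusted p of at most 0.05. By this rule 3 genes were higher with PTPRN knockdown (NOTCH1, NOTCH2 and HES1) and 4 were lower (NOTCH3, JAG1, DLL1 and HEY1), while JAG2 and NRARP did not pass. That is 7 of 9, where 57.9% of all genes passed, 30.8% higher and 27.1% lower. The values of the groups did not overlap in 8 of the 9 genes, all but NRARP, and in 75.6% of all genes. The stricter thresholds of the study, an adjusted p of at most 0.001 and a fold of at least 2, were met by 6.69% of all genes and by 0 of the 9. The median log2 difference of the 9 genes was -0.12, beside 0.01 over all genes tested.

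**Figure D1:**
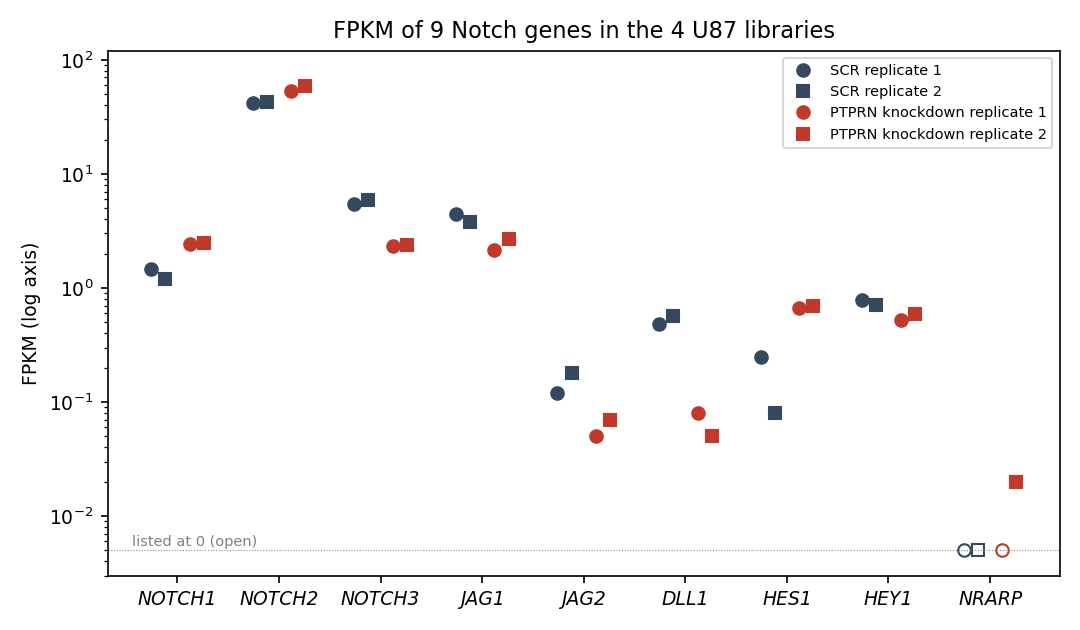
FPKM on a log axis for 9 Notch genes, with 1 point per library (blue, SCR, and red, PTPRN knockdown). NOTCH2 lies above 40 in every library, whereas DLL1, JAG2, HES1, HEY1 and NRARP stay under 1, and NRARP is listed at 0 in 3 of the 4 libraries.

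Among the receptors, which receive the signal, NOTCH2 (Gene ID 4853, chromosome 1 from 119911553 to 120069703 on GRCh38, minus strand) was by far the most abundant. Its FPKM was 53.7 and 58.4 with PTPRN knockdown and 41.5 and 42.7 with SCR. Both knockdown libraries were above both SCR libraries. The log2 difference was 0.40 (standard error 0.05, adjusted p = 0.00600, limma), and it did not pass without SCR replicate 1 (adjusted p = 0.0978) or SCR replicate 2 (0.0864). NOTCH2NL, a partial copy of NOTCH2 nearly identical to its beginning, had an FPKM of 3.85 and 4.28 against 3.12 and 2.97 and was higher as well (log2 difference 0.32, adjusted p = 0.0129, limma). NOTCH2NL did not pass without knockdown replicate 2 (0.0621), SCR replicate 1 (0.114) or SCR replicate 2 (0.138). How the counting divided reads between these copies is not given in the sources used here, so the value of NOTCH2 is uncertain to that extent.

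NOTCH1 (Gene ID 4851, chromosome 9 from 136494433 to 136545786, minus strand) was much lower in level. It had an FPKM of 2.41 and 2.49 with PTPRN knockdown and of 1.47 and 1.2 with SCR, which is about 202 to 420 reads. The groups did not overlap, and the log2 difference was 0.57 (standard error 0.07, adjusted p = 0.00469, limma). It did not pass without knockdown replicate 1 (0.0812) or knockdown replicate 2 (0.0874).

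NOTCH3 (Gene ID 4854, chromosome 19 from 15159633 to 15200981, minus strand) went the other way. Its FPKM was 2.35 and 2.4 with the knockdown and 5.48 and 5.93 with SCR. Both knockdown libraries were below both SCR libraries, and the means differed 2.4-fold. The log2 difference was -0.99 (standard error 0.05, adjusted p = 5.77e-04, limma), just short of the 2-fold line on this scale, where the pseudocount shrinks the change. The fall passed an adjusted p of 0.05 under all 11 alternatives tried, 4 of which left out a library. In cells sequenced in bulk, fewer cells making a transcript and less of it per cell cannot be told apart.

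Together the receptors summed to an FPKM of 58.5 and 63.3 with PTPRN knockdown and of 48.5 and 49.8 with SCR, and their mix shifted. NOTCH2 made up 92.1% ± 0.291 (SD, n = 2) of the sum with the knockdown and 85.7% ± 0.015 with SCR. The share of NOTCH3 was 3.91% ± 0.159 and 11.6% ± 0.425 in the same order, and that of NOTCH1 was 4.03% ± 0.131 and 2.72% ± 0.441. NOTCH3 had 3.73 and 4.94 times the FPKM of NOTCH1 in the SCR libraries, and 0.975 and 0.964 times in the knockdown libraries. The shares of the groups did not overlap for any of these receptors. With 2 libraries against 2, an exact permutation test of such a value cannot go below p = 0.33 (two-sided), so no test of the shares is given. NOTCH4, the remaining receptor, had an FPKM of at most 0.58, and its difference did not pass (log2 difference 0.17, adjusted p = 0.0550, limma), although it passed under quantile normalization (0.0177).

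**Figure D2:**
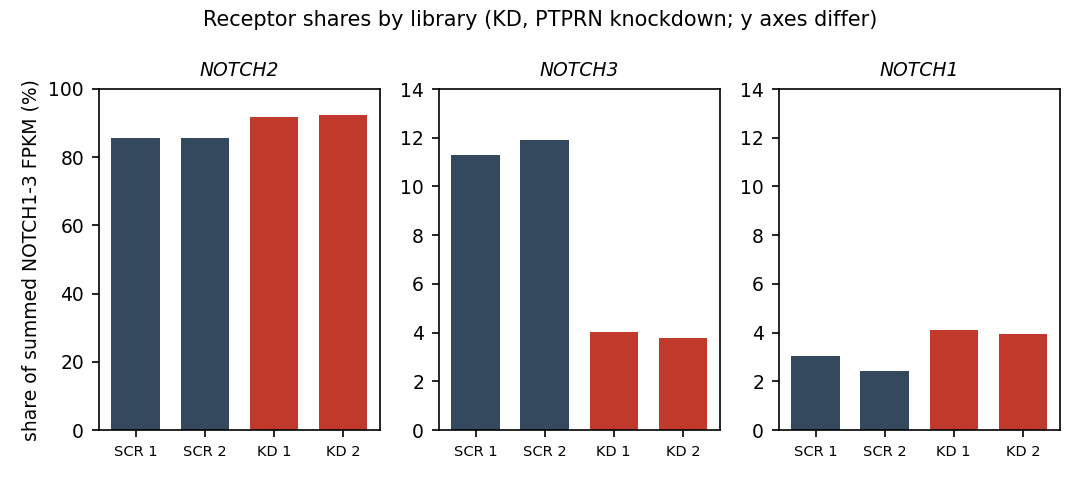
Share in percent of the summed FPKM of NOTCH1, NOTCH2 and NOTCH3, with 1 bar per library and a separate axis range for NOTCH2. NOTCH3 lies between 11.3% and 11.9% in the SCR libraries and between 3.79% and 4.02% with PTPRN knockdown.

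For all 3 ligands the values of the knockdown libraries lay below those of the SCR libraries. The groups did not overlap, in either direction, in 75.6% of all genes tested. The difference passed for JAG1 and DLL1, where 57.9% of all genes passed and 27.1% were lower. Jagged and Delta-like proteins sit on the sending cell, and JAG1 (Gene ID 182, chromosome 20 from 10637684 to 10674046, minus strand) was the main one here. JAG1 had an FPKM of 2.16 and 2.70 with PTPRN knockdown and of 4.41 and 3.81 with SCR. The knockdown libraries were both below the SCR libraries. The log2 difference was -0.58 (standard error 0.11, adjusted p = 0.0155, limma). It did not pass once any one of the 4 libraries was left out: the adjusted p was 0.110 and 0.0677 without knockdown replicates 1 and 2, and 0.157 and 0.109 without SCR replicates 1 and 2. The antisense gene AL050403.2 of the GENCODE 29 annotation overlaps an exon of JAG1. Whether reads were assigned by strand is not given in the sources used here, so reads within the stretch they share cannot be told apart.

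DLL1 (Gene ID 28514) had the largest ratio between the groups among the Notch genes with a mean above 0 in both. It was nearly lost in the knockdown libraries, with an FPKM of 0.08 and 0.05 against 0.48 and 0.57 with SCR. This is about 5 and 3 reads against 31 and 34, a level 7.81-fold higher with SCR (95% exact interval 3.74 to 18.9, counting error only). On the log2(FPKM + 1) scale, which compresses such low values, the difference was -0.52 (standard error 0.04, adjusted p = 0.00197, limma), and with a pseudocount of 0.1 it was -1.92. DLL1 still passed when any one library was removed (adjusted p from 0.0276 to 0.0478). The table places DLL1 on the alternate scaffold chr6_KI270798v1_alt, from 9444 to 17847, and GENCODE 29 has it on chromosome 6 from 170282206 to 170306565, minus strand. How reads that match both places were counted is not given in the sources used here, so the level of DLL1 is uncertain to that extent.

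JAG2 (Gene ID 3714, chromosome 14 from 105140981 to 105168824, minus strand) was close to the limit of detection. It had an FPKM of 0.05 and 0.07 with the knockdown and of 0.12 and 0.18 with SCR, or about 5 and 7 reads against 14 and 19. The groups did not overlap, yet the log2 difference of -0.12 did not pass (adjusted p = 0.0783, limma), while with a pseudocount of 0.1 it was -0.64 and passed (0.0474). AL512356.1, on the same strand, overlaps an exon of JAG2. By counting error alone, JAG2 was 2.65-fold higher with SCR (95% exact interval 1.33 to 5.62). The summed FPKM of JAG1, JAG2 and DLL1 was 2.29 and 2.82 with PTPRN knockdown and 5.01 and 4.56 with SCR.

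The targets were expressed at very low levels in both groups, under an FPKM of 1 in every library. HES1 (Gene ID 3280, chromosome 3 from 194136142 to 194138612, plus strand), a basic helix-loop-helix repressor and a direct target of Notch in many tissues, had an FPKM of 0.66 and 0.70 with PTPRN knockdown and of 0.25 and 0.08 with SCR. This is about 17 and 18 reads against 7 and 2. The knockdown libraries were alike and above both SCR libraries, which were further apart. The level was 4.04-fold higher with the knockdown by these reads (95% exact interval 1.91 to 9.56), and the log2 difference was 0.53 (standard error 0.08, adjusted p = 0.00951, limma). It did not pass without knockdown replicate 1 (0.116) or knockdown replicate 2 (0.125). With a pseudocount of 0.1 the difference was 1.64.

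HEY1 (Gene ID 23462, chromosome 8 from 79764010 to 79767863, minus strand), a related repressor, moved against HES1. Its FPKM was 0.52 and 0.59 with the knockdown and 0.79 and 0.71 with SCR, or about 22 and 24 reads against 35 and 29. The groups did not overlap. The log2 difference was -0.17 (standard error 0.04, adjusted p = 0.0372, limma), but counting error alone allows a ratio of SCR to knockdown from 0.902 to 2.00. HEY1 did not pass with any one library left out (adjusted p from 0.103 to 0.172) or under quantile normalization (0.158). The ratio of HES1 to HEY1 was 1.27 and 1.19 in the knockdown libraries and 0.316 and 0.113 in the SCR libraries.

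NRARP (Gene ID 441478, chromosome 9 from 137299631 to 137302251, minus strand), which dampens Notch signalling and is itself induced by it, was barely detected. It was listed at 0 in both SCR libraries and in knockdown replicate 1, and its FPKM of 0.02 in knockdown replicate 2 is about 0.9 of a read. At this depth no difference was detectable (log2 difference 0.01, adjusted p = 0.717, limma). HEYL (Gene ID 26508), the third member of the HEY family, had no value in any library.

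The proximal promoters of 2 targets, HES1 and HEYL, are shown. Of the 8 Notch genes with a promoter in the RefSeq table used, only these 2 hold GTGGGAA, the core sequence bound by RBPJ. DLL1 and HEY1 had no entry. The stretches below are the 250 bases before the RefSeq start on GRCh38.p14, 5′ to 3′ on the strand of the gene, and capitals mark the core or its reverse complement TTCCCAC.
HES1, chr3:194135898-194136147, plus strand: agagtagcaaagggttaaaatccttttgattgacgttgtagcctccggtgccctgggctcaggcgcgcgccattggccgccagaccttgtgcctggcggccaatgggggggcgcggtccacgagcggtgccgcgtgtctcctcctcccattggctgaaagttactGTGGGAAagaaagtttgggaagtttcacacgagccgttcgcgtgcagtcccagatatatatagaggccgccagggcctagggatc
HEYL, chr1:39639644-39639893, minus strand: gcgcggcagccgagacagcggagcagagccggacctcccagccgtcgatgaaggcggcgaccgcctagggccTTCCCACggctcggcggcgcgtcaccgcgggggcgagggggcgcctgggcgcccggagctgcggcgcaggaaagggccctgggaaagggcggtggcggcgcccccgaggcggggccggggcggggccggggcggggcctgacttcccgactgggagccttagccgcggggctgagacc

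The match in HES1 begins 85 bases before the start, on the strand of the gene, and that in HEYL 178 bases before it, on the opposite strand. GENCODE 29 places HEYL from 39624153 to 39639945, so the HEYL stretch lies inside that gene rather than before it. The RefSeq start of NOTCH1 also differs, lying before the NOTCH1 gene of GENCODE 29. Both strands were searched from 250 bases before to 50 after each start, and 6.25% of the 35116 promoters in the table held the core. Over the HES and HEY genes of the members and the pathway list together, 5 of the 8 with a promoter held it, namely HES1, HEYL, HES4, HES5 and HEY2. The N-box CACNAG, a sequence that HES proteins bind, was found in 5 of the 8 Notch genes and in 38.0% of all promoters. HES1, which is known to repress its own gene, had matches beginning 165, 132 and 58 bases before its start and another after it, none of them overlapping the RBPJ core. No core was found in the windows of the receptor genes or of JAG1, JAG2 and NRARP, which says only that these letters are not in these windows.

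The order of the levels also differed between the groups. In the SCR libraries it ran NOTCH2, NOTCH3, JAG1, NOTCH1, HEY1, DLL1, HES1, JAG2 and NRARP, and only HES1 and JAG2 overlapped as neighbours. With PTPRN knockdown it ran NOTCH2, NOTCH1, JAG1, NOTCH3, HES1, HEY1, DLL1, JAG2 and NRARP. There JAG1 overlapped with both NOTCH1 and NOTCH3, and DLL1 overlapped with JAG2. Among all tested genes, NOTCH2 stood at the 91.5th percentile of FPKM with the knockdown and at the 88.9th with SCR. NOTCH3 stood at the 40.5th and the 51.8th, and HES1 at the 30.4th and the 20.0th.

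**Figure D3:**
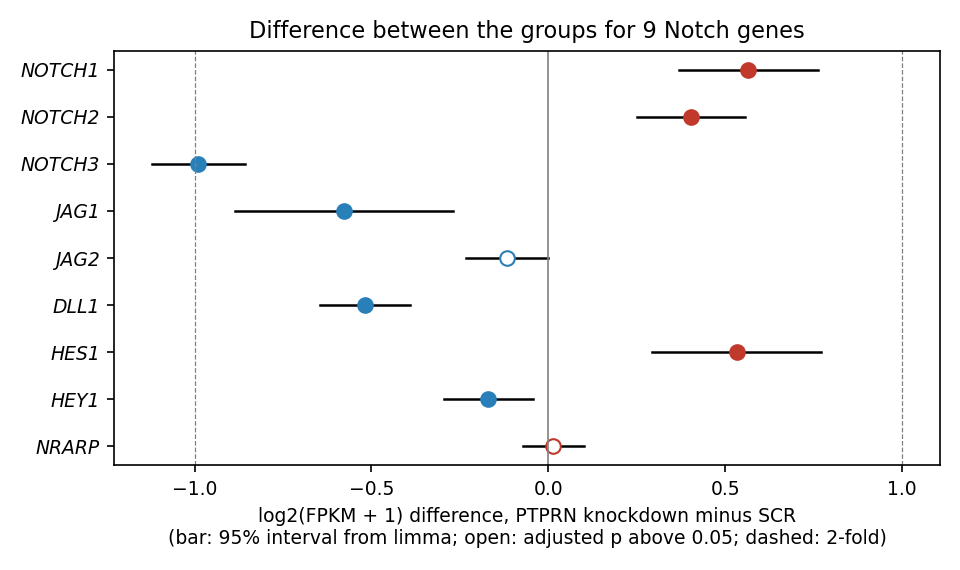
Difference in log2(FPKM + 1), PTPRN knockdown minus SCR, for 9 Notch genes, with the 95% interval of limma as a bar and open points where the adjusted p was above 0.05. NOTCH1, NOTCH2 and HES1 lie to the right of 0, NOTCH3 lies furthest to the left at -0.99, and JAG2 and NRARP are open.

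Beyond these genes, a list of 66 other pathway genes was sorted by role, and 64 of them were tested. Of these, 15 were higher, 22 were lower and 27 did not pass, so that 37 of 64 (57.8%) passed, against the 57.9% of all genes given above. Their median log2 difference was -0.02. The stricter thresholds were met by 2 genes that were higher (DNER and HES7) and 3 that were lower (LFNG, NCSTN and TLE1).

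The genes that act before and on the ligands and receptors held the largest change of the list. LFNG, the Fringe enzyme that adds a sugar to Notch and alters which ligands it responds to, had an FPKM of 0.94 and 0.69 with PTPRN knockdown and of 22.1 and 21.6 with SCR. It was nearly lost in both knockdown libraries, 26.8-fold lower by the means (log2 difference -3.66, standard error 0.08, adjusted p = 2.42e-04, limma). POGLUT1, which adds glucose to the same repeats of the receptor, was 2.89 and 2.48 against 6.0 and 6.05 (log2 difference -0.93, adjusted p = 0.00124), and did not pass without SCR replicate 1 (0.0507) or SCR replicate 2 (0.0507). In all, 3 of the 6 glycosylation genes were lower and 1 was higher, or 66.7% passing, beside 57.9% of all genes tested. DNER, a ligand-like transmembrane protein of neurons, was the only one of the 5 further ligand and ligand-like genes to pass. It was higher, at 55.7 and 54.6 against 26.2 and 25.1 (log2 difference 1.08, adjusted p = 3.79e-04, limma). The remaining 4 of this group, DLL3, DLL4, DLK1 and DLK2, were under 1 in every library. MIB1 and MIB2, ubiquitin ligases that drive the uptake of ligand in the sending cell, were both lower (log2 differences -0.34 and -0.39, adjusted p = 0.00563 and 0.0103), and neither passed without SCR replicate 1 or SCR replicate 2 (adjusted p = 0.0819 and 0.0855 for MIB1, 0.118 and 0.0887 for MIB2). MIB2 did not pass without knockdown replicate 1 (0.0802) or 2 (0.0557) either.

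Genes of receptor cleavage were all expressed at an FPKM of 10 or more in some library, and 5 of 9 were lower and 2 higher. That is 77.8% passing, beside 57.9% of all genes tested. When only genes reaching an FPKM of 1 in 2 libraries were fitted, 78.8% of them passed. NCSTN encodes nicastrin, the subunit of γ-secretase that receives the substrate, and had an FPKM of 19.75 and 18.7 with PTPRN knockdown against 42.15 and 41.9 with SCR (log2 difference -1.09, standard error 0.04, adjusted p = 4.00e-04, limma). PSENEN, a small subunit of the same complex, went up to 86.8 and 85.5 from 55.0 and 56.1 (log2 difference 0.62, adjusted p = 6.41e-04). In the nuclear complex, 3 of 10 genes were lower and 1 was higher, or 40% passing. RBPJ, the DNA-binding partner of all Notch receptors, had 18.1 and 20.15 against 32.4 and 33.5 (log2 difference -0.76, adjusted p = 0.00186) and did not pass without SCR replicate 1 (0.0568) or SCR replicate 2 (0.0601). EP300, a histone acetyltransferase and co-activator, was lower by a smaller amount (log2 difference -0.47, adjusted p = 0.00228).

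Among the 13 co-repressors, 4 were higher and 5 were lower, or 69.2% passing, beside 57.9% of all genes tested. TLE1, a Groucho protein that HES factors recruit, was 5.26 and 5.72 with the knockdown and 14.4 and 14.3 with SCR (log2 difference -1.24, adjusted p = 4.27e-04, limma). Its relative TLE3 was higher, at 6.77 and 6.39 against 4.33 and 3.64 (log2 difference 0.61, adjusted p = 0.00651), and did not pass without knockdown replicate 1 (0.103) or knockdown replicate 2 (0.0893). Of the 11 turnover and trafficking genes tested, 4 were higher and 2 were lower, or 54.5% passing. NUMB, an endocytic adaptor that antagonises Notch, had the largest change of this group, with 116.5 and 115.6 against 59.0 and 58.9 (log2 difference 0.96, adjusted p = 3.32e-04). CCNC, the cyclin whose kinase marks the intracellular domain for degradation, was also higher (log2 difference 0.75, adjusted p = 0.00121).

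The rest of the HES and HEY family was as divided as HES1 and HEY1. HES7, known for its oscillation during the formation of somites, had an FPKM of 5.63 and 4.60 with PTPRN knockdown and of 0.75 and 0.85 with SCR (log2 difference 1.76, standard error 0.10, adjusted p = 7.83e-04, limma). HES6, which counters HES1 in neural differentiation, was 4.71 and 3.41 against 10.3 and 9.16 (log2 difference -1.10, adjusted p = 0.00671), and did not pass without SCR replicate 1 (0.118) or SCR replicate 2 (0.0983). HEY2, named after its values were seen, was 0.49 and 0.30 against 1.00 and 1.07 (log2 difference -0.55, adjusted p = 0.00773), and did not pass without SCR replicate 1 (0.110) or SCR replicate 2 (0.122). HES2 and HES4 did not pass, and HES5 had no value.

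**Figure D4:**
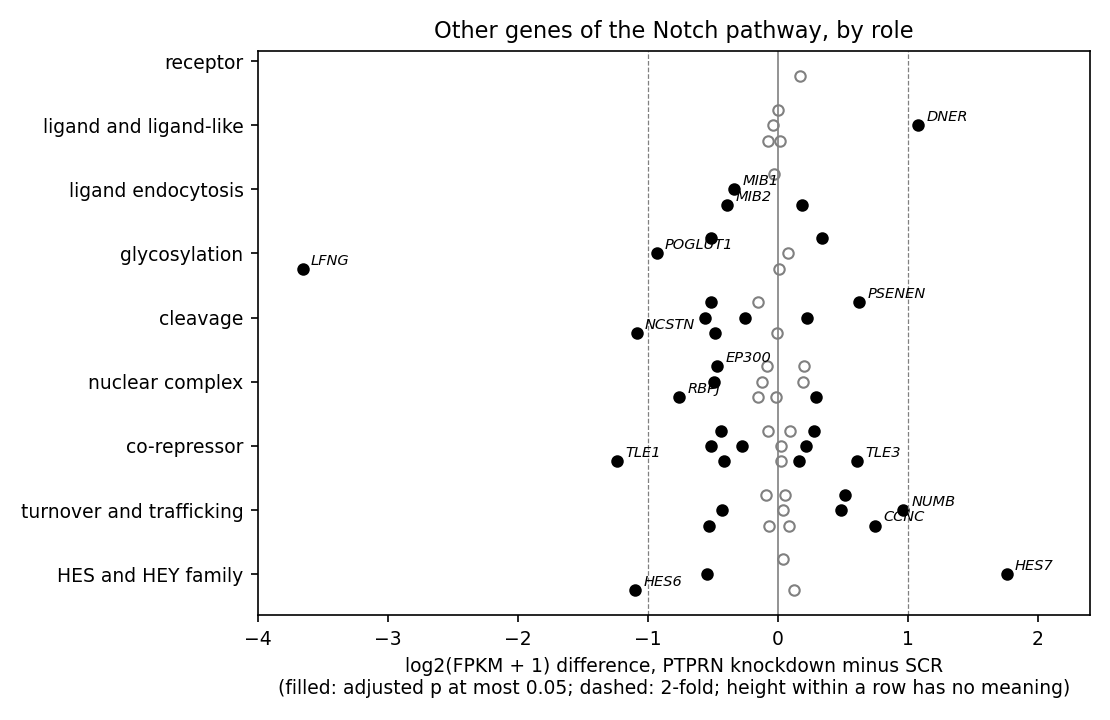
Difference in log2(FPKM + 1), PTPRN knockdown minus SCR, for 64 other genes of the Notch pathway in rows by role, filled where the adjusted p was at most 0.05. LFNG lies furthest to the left at -3.66 and HES7 furthest to the right at 1.76.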

How the data were processed

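RNA-seq reads (single-end, 50 bases, BGISEQ-500) were processed by the authors, who deposited FPKM values for each gene and library, rounded to 2 decimals. The submitters' processing notes name HISAT2 2.1.0 and hg19, but gene positions in the table are those of GRCh38. The counting program is not given in the sources used here. The deposited tables hold the same FPKM values (0 of 66380 differed). Their fold changes and p-values from the authors' own comparisons were not used. For every gene above 0 in at least 1 library, limma 3.58.1 (R 4.3.3, lmFit and eBayes, default options) was fitted to log2(FPKM + 1), with group as the only term. The procedure was also run on simulated data, in which only genes averaging an FPKM of 1 or more were changed. That run does not cover changes in genes below this level. Its noise was set from the spread between these same replicate libraries, and its outcome is not used as support here. Depth was estimated as the read total at which values of 1-transcript genes became whole reads (86.1% to 90.3% within 0.15 of a read). Approximate reads of a gene use its longest transcript, and intervals cover counting error only. From the pathway list, the text names every gene past the stricter thresholds and, per role, the 2 passing genes of largest change whose higher group averaged an FPKM of 1 or more. The members and lists were chosen with earlier results of these data known. Alternatives tried were 0.1 as the pseudocount, only genes reaching an FPKM of 1 in 2 libraries, an eBayes trend, other scalings, a replicate block and leaving out each library. A pseudocount of 0.1 with a trend was added after seeing the data.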

Additional observations from a re-analysis of the deposited data

How the results depend on the processing

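No Notch gene changed direction under the alternatives in which it was tested, although the difference of NRARP was exactly 0 without knockdown replicate 2. Of 94 values recomputed for the 9 genes, 75 kept their side of the adjusted p of 0.05, 17 no longer passed and 2 newly passed. Of the 17, 14 came from leaving out a library, which leaves 1 library in a group whose spread is then taken from the others. With a library left out, 1 to 2 Notch genes were higher and 2 were lower, and 9 to 10 pathway genes were higher and 13 to 17 lower. The strict thresholds were then met by 0 of all 16595 genes (6181 to 6332 passed 0.05 and 8700 to 8790 an unadjusted p of 0.05 in limma), so the strict counts of 0 say nothing about stability. With a minimum FPKM of 1, NOTCH1 and NOTCH2 were higher and NOTCH3 and JAG1 lower, since HES1, DLL1 and HEY1 were no longer tested. Under this minimum 78.8% of the 11480 genes tested passed, 43.1% higher and 35.7% lower. NOTCH3 met the strict thresholds under median-ratio scaling and under the pseudocount of 0.1 with a trend (1 gene lower in each). With a pseudocount of 0.1 alone, 0 of all 16595 genes met them (10185 had an unadjusted p under 0.05). Same-numbered libraries did not deviate together (correlation 0.06 over 11272 genes), and the numbers are not said to pair the samples. With the replicate block, 3 Notch genes were higher and 3 lower, where 55.1% of all genes passed. HEY1 no longer passed (adjusted p = 0.0858, limma), and 0 of all genes met the strict thresholds (10108 had an unadjusted p under 0.05). Of 176 values for the named pathway genes and PTPRN, 14 no longer passed, all with a library left out. This tally covers PTPRN and the genes named by the rule given above, so HEY2, NOTCH4 and NOTCH2NL are not in it. The NOTCH2 share was 91.2% and 85.0% with NOTCH4 added, and 91.6% and 86.1% under quantile normalization, with the knockdown and SCR. The latter gave 4.26% for NOTCH1 and 4.13% for NOTCH3 with the knockdown. Depth limits HES1, HEY1, DLL1, JAG2 and NRARP, which rest on 35 reads or fewer per library.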
